A study of Homo sapiens with 6 samples.

Results

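CYP1B1 (ENSG00000138061) was examined across control and shSTYK1 PANC-1 cells as 1 of the 995 genes in the deposited expression table, found by its symbol. It was picked because it stood near the top of the genes that were lower in shSTYK1 cells. Its own difference between the groups is therefore given as a description, with no test. The study asked what depletion of STYK1, a receptor-like serine/threonine/tyrosine kinase, changes in pancreatic cancer cells. PANC-1 is an established human line from a carcinoma of the pancreatic duct, and poly(A)-selected RNA was sequenced from 3 control and 3 shSTYK1 libraries. According to the study's methods, lentivirus made with pLKO.1-puro delivered short hairpin RNAs against STYK1. Resistant clones were picked after selection with puromycin and/or G418 and grown on. Which hairpin the sequenced cells carried, how many clones they came from and what the control cells received are not given in the sources used here. STYK1 itself is not among the 995 genes, so the knockdown was not checked here.

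Cytochrome P450 1B1 is a haem enzyme of the endoplasmic reticulum that oxidises oestrogens, retinoids, fatty acids and polycyclic aromatic hydrocarbons. It is found mostly outside the liver and is known for its presence in tumours and for its role in congenital glaucoma. Its gene is a textbook target of the aryl hydrocarbon receptor. On binding a ligand, this receptor enters the nucleus, pairs with ARNT and switches on CYP1A1, CYP1A2, CYP1B1 and its own repressor AHRR.

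In GENCODE 29 (build GRCh38), CYP1B1 lies on the minus strand at chr2:38066973-38109902 and has 7 transcripts, 4 of them protein coding. The main transcript has 3 exons of 402, 1044 and 3804 bases. Exon 1 is untranslated, exon 2 holds 1043 coding bases and exon 3 the other 586. The following coding stretch of 60 bases, in exon 3 at chr2:38070923-38070982, surrounds the cysteine that holds the haem iron (residue 470 of 543). It is shown beside the same stretch of CYP4F12, the only other table gene found among the P450 symbols searched, which crosses an exon junction on chromosome 19 (cysteine 468 of 524). Capitals mark the cysteine codon, and both are GENCODE transcript sequence, read 5′ to 3′.
CYP1B1: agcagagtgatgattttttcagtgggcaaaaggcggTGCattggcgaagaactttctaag
CYP4F12: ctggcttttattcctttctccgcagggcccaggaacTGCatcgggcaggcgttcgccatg
The pair share 27 of these 60 bases, in the stretch that P450 enzymes have most in common.

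An antisense gene, CYP1B1-AS1, runs through the same place on the plus strand (chr2:38073447-38231651). Its exons cover 678 exon bases of CYP1B1, which are 11.3% of the exon bases of CYP1B1 and 9.10% of its own. Of the 1629 coding bases of CYP1B1, 385 are covered. One of the shared stretches is the 3′ end of coding exon 2, at chr2:38074346-38074427. It is printed below in the direction of CYP1B1, with 30 bases of exon 2 before it, and capitals mark the 82 bases that both genes share.
CYP1B1 exon 2 end: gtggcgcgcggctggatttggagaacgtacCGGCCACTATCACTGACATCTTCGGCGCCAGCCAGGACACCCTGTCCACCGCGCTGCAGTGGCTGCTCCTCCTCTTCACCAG
RMDN2, also on the plus strand, shares 96 exon bases with the far end of CYP1B1 and none of its coding bases. RMDN2-AS1, on the same minus strand as CYP1B1, shares 69 of its exon bases, none of them coding, and strand would not separate reads there. Whether the counting used strand is not given in the sources used here, so reads of CYP1B1 and of its antisense partner over shared bases cannot be told apart.

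**Figure D1:**
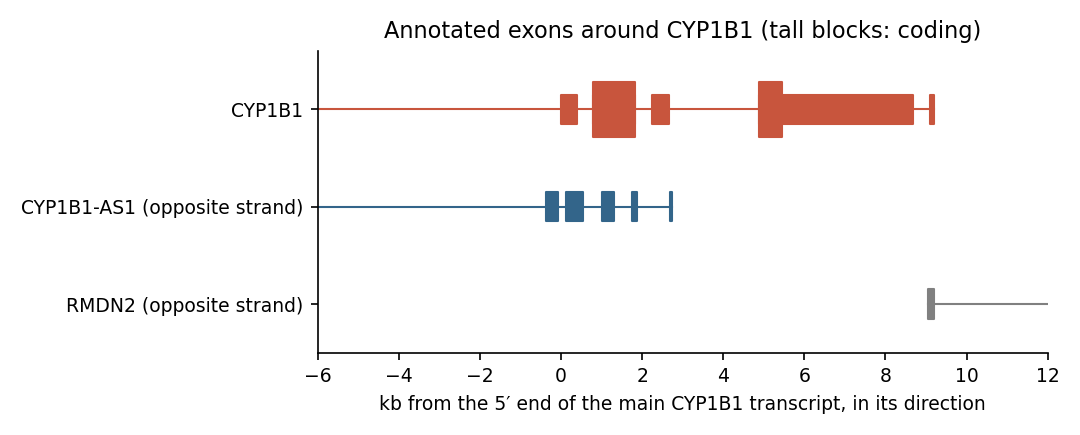
Annotated exons (GENCODE 29) of CYP1B1, CYP1B1-AS1 and RMDN2, with the horizontal axis in kb from the 5′ end of the main CYP1B1 transcript and tall blocks for coding sequence. The antisense exons overlap the first exon of CYP1B1 and parts of its first coding exon, and the last coding exon carries none of them. The gene lines run on beyond the drawn window.

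The deposited table holds, for each gene, a z-score per library (mean 0 and SD 1 over the 6 libraries). Expression values with 2 decimals were recovered from these scores, as described under the processing. For CYP1B1, the recovered values gave back the deposited z-scores to within 3.9e-12. The z-scores alone fix the value plus 1 only up to a common factor or power. The search kept the set of values with 2 decimals whose highest value was smallest, and the folds and percentages rest on that choice. The unit and the sequencing depth are not given, so levels are compared only within a gene. Where differences of several genes are set side by side, their size on the log2(value + 1) scale also depends on each gene's level.

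CYP1B1 had recovered values of 99.18, 97.85 and 122.58 in control libraries 1 to 3. In shSTYK1 libraries 1 to 3 it had 2.74, 1.98 and 2.83. All 3 shSTYK1 libraries lay far below all 3 control libraries, and the groups did not overlap. The control mean was 107 ± 13.9 (SD, n = 3), and the mean of the shSTYK1 cells was 2.52 ± 0.467 (SD, n = 3). The shSTYK1 mean was thus 2.36% of the control mean, 42.3-fold lower. Taking the nearest libraries of both groups, the lowest control value was 34.6 times the highest shSTYK1 value, and for the farthest pair the ratio was 61.9. In these bulk samples, fewer cells that express CYP1B1 and less CYP1B1 RNA per cell cannot be told apart.

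Within a group the libraries lay close together. The highest control library, number 3, had 1.25 times the value of the lowest, and in shSTYK1 cells the highest had 1.43 times the lowest. The coefficient of variation was 13.1% in control and 18.5% in shSTYK1 cells. On the log2(value + 1) scale, control cells had a mean of 6.74 ± 0.18 (SD, n = 3) and shSTYK1 cells one of 1.81 ± 0.20 (SD, n = 3). The difference, shSTYK1 minus control, was -4.94. The pooled SD within groups was 0.19 on this scale, against a median of 0.20 over the 740 genes that passed the filter for testing (3 or more libraries at 1 or above). Of these genes, 45.8% had a smaller SD than CYP1B1. The spread of CYP1B1 between replicates was thus near the middle of those of the genes tested.

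The antisense gene gives a second reading at the same locus. CYP1B1-AS1 (ENSG00000232973) had values of 5.93, 5.82 and 7.30 in control libraries 1 to 3 and of 3.57, 3.10 and 2.42 in shSTYK1 libraries 1 to 3. Its groups did not overlap either, and control library 3 was again the highest. In shSTYK1 cells the order differed: library 3 was the highest for CYP1B1 and the lowest for the antisense gene. The means were 6.35 ± 0.825 (SD, n = 3) and 3.03 ± 0.578 (SD, n = 3), so that 47.7% of the control mean was left, beside 2.36% for CYP1B1. The difference on the log2(value + 1) scale was -0.87 (SE 0.15, adjusted p = 0.000878 in limma with Benjamini-Hochberg adjustment over 740 genes). How far reads of CYP1B1 itself enter this value, given the shared exon bases, was not tested.

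**Figure D2:**
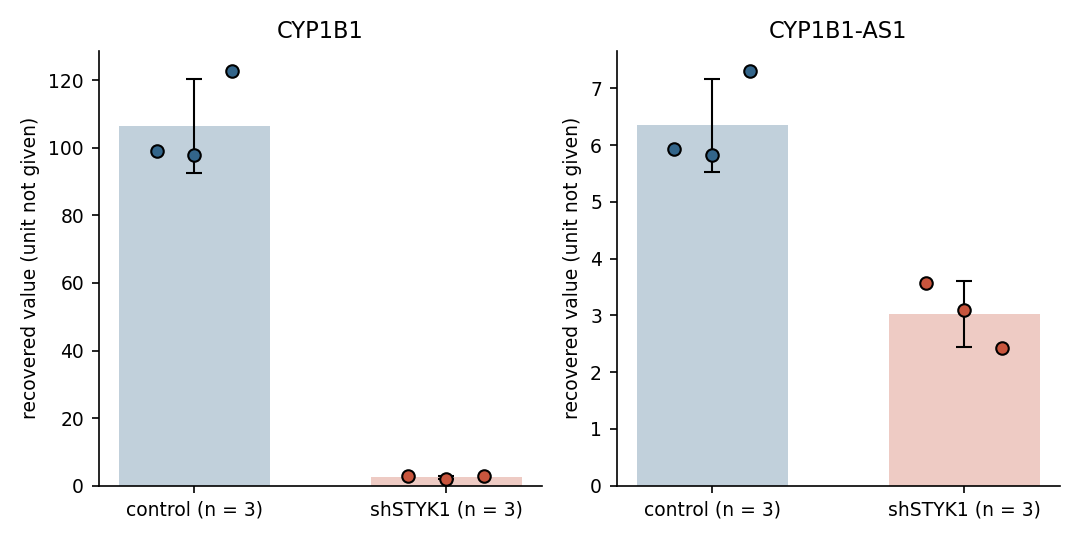
Recovered values (unit not given) of CYP1B1, left, and CYP1B1-AS1, right, with one point per library, bars at the mean and error bars of 1 SD (n = 3 per group). CYP1B1 lies between 97.85 and 122.58 in control and between 1.98 and 2.83 in shSTYK1 libraries, and the antisense gene keeps 47.7% of its control mean.

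The table was selected by its authors on these same libraries, so calls in it are no independent evidence of a change. Of the 740 genes tested in limma, 329 (44.5%) were called lower and 379 (51.2%) higher in shSTYK1 cells, 95.7% in all. With rescaling by the median of ratios, 333 were called lower and 266 higher, so that lower calls were then the more common ones. This rescaling and quantile normalization were computed from the selected genes of the table alone, most of which differ between the groups. They can therefore also take out real differences, and a smaller difference or a lost call under them is to be read with this limit. The groups did not overlap in 931 of 994 genes (93.7%). A call or a lack of overlap is thus the usual state of a gene in this table. Of the 740 genes, 179 (24.2%) had every library of one group below 1, so they passed the filter only through the group where they were high and had to differ. All 179 were called, and among the genes named here they are GJA1, DSP, BMP5, MAGEA6, DHRS9 and PTGS1. By the size of its difference, for which it was picked, CYP1B1 stood at place 2 of 740 from the most negative end. The only gene beyond it was GJA1, which encodes the gap junction protein connexin 43. GJA1 had 44.54, 43.65 and 46.49 in control and 0.10, 0.03 and 0.19 in shSTYK1 libraries, a difference of -5.38. After CYP1B1 came RPL36A-HNRNPH2, a read-through of a pair of genes whose reads it shares, at -3.99 with an uneven shSTYK1 group (0.78, 22.96 and 4.13). DSP, which encodes the desmosome protein desmoplakin, stood at -3.64 (-6.04 with a pseudocount of 0.1), with 12.43, 13.44 and 12.40 in control and 0.04, 0.13 and 0.13 in shSTYK1 libraries. The place of CYP1B1 depends on the scale: with a pseudocount of 0.1 it was 8 of 740, and by the difference of deposited z-scores 12 of 995. The log2(value + 1) scale understates the fold of genes whose shSTYK1 values are near 0. Without shSTYK1 library 2, CYP1B1 was at place 3, with -4.82 against -4.99 for RPL36A-HNRNPH2. By the ratio of group means with no pseudocount, it was at place 7 of the 712 tested genes above 0 in every library.

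**Figure D3:**
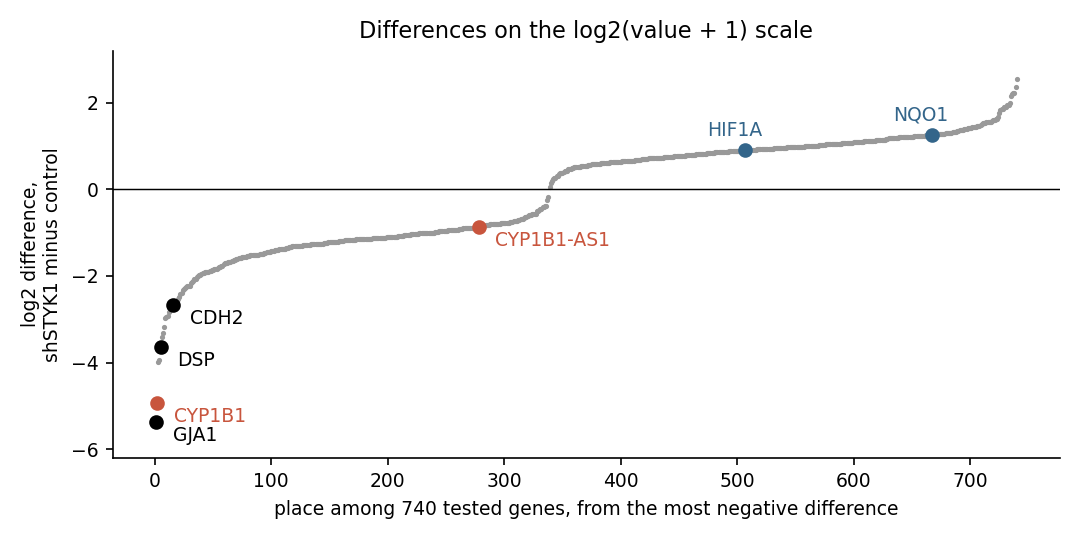
Difference of each of 740 tested genes on the log2(value + 1) scale (vertical axis, shSTYK1 minus control), ordered from the most negative (horizontal axis, place). CYP1B1 at -4.94 and GJA1 at -5.38 stand apart at the lower end, and CYP1B1-AS1 at -0.87 lies among the bulk of the genes that were lower.

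For the receptor pathway that CYP1B1 is known to read out, the table holds little. None of 7 genes set for comparison, CYP1A1, CYP1A2, AHR, AHRR, TIPARP, NFE2L2 and ALDH3A1, is among the 995 genes, and they were not analysed here. This absence says nothing about their levels, since the table holds selected genes only. Of 14 genes of the receptor complex and its coactivators, only ARNT2, a partner subunit related to ARNT, is in the table. ARNT2 had 0.40, 0.54 and 0.75 in control and 0.41, 0.24 and 1.17 in shSTYK1 libraries, so its groups overlapped, and it was below the filter of the test.

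Among 22 textbook targets of the receptor other than CYP1B1, 2 are in the table. NQO1, a quinone reductase that NRF2 also drives, had 168.68, 180.16 and 176.06 in control and 422.90, 403.85 and 432.55 in shSTYK1 libraries. Every shSTYK1 library was above every control library, the opposite direction to CYP1B1. Its difference was 1.26 (SE 0.11, adjusted p = 4.63e-05 in limma), and it fell to 0.71 with rescaling by the median of ratios and to 0.37 with quantile normalization. NEDD9, a scaffold protein of focal adhesions, had 0.23, 0.70 and 0.47 in control and 0, 0 and 0.04 in shSTYK1 libraries. These values were lower in shSTYK1 cells, as for CYP1B1, but too low for the filter. The NEDD9 mean left in shSTYK1 cells was 2.86% of control, close to the 2.36% of CYP1B1, but it rests on values near 0.

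Of 16 transcription factors of the bHLH-PAS family, to which the receptor belongs, the table holds 3. Beside ARNT2 they are the oxygen-regulated HIF1A and EPAS1 (HIF-2α), which pair with ARNT as the receptor does. HIF1A rose from 43.47, 41.68 and 47.21 in control to 90.17, 72.09 and 89.12 in shSTYK1 libraries, a difference of 0.90 (SE 0.14, adjusted p = 0.000409 in limma). Rescaling by the median of ratios lowered it to 0.36. EPAS1 fell from 7.21, 9.03 and 7.29 to 2.31, 2.44 and 3.02, a difference of -1.30 (SE 0.14, adjusted p = 9.86e-05 in limma). The pair thus moved in opposite directions, and neither difference came near the -4.94 of CYP1B1.

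Among 54 P450 genes looked for by symbol, CYP4F12 was the only one in the table besides CYP1B1. It encodes a fatty acid hydroxylase of the CYP4 family. CYP4F12 had 0.18, 0.31 and 0.10 in control and 1.05, 1.22 and 0.79 in shSTYK1 libraries, below the filter and in the opposite direction to CYP1B1. None of 9 electron donors and partners of P450 enzymes, such as POR, is in the table.

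Few enzymes that act after a P450 are in the table. For the counts that follow, 44.5% of all 740 tested genes were called lower and 51.2% higher, so a call by itself says nothing particular about these lists. Of 56 conjugating enzymes, 2 are in the table, and both were called lower. MGST1, a microsomal glutathione transferase, had 5.48, 13.79 and 11.57 in control and 0, 0.19 and 1.25 in shSTYK1 libraries, a difference of -2.94 (SE 0.38, adjusted p = 0.000198 in limma) that became -4.83 with a pseudocount of 0.1. GSTA4, which clears products of lipid peroxidation, had 3.91, 3.27 and 3.34 against 0.71, 1.05 and 1.81, a difference of -1.07. Of 54 other oxidoreductases and hydrolases, 7 are in the table and 6 were tested, with 1 called lower and 5 higher (44.5% and 51.2% over all tested genes). Their median difference was 1.02, against 0.55 over all 740 tested genes. The lower one was AOX1, an aldehyde oxidase, at -0.88 (-1.48 with a pseudocount of 0.1), with 3.19, 1.79 and 2.55 in control and 1.46, 0.34 and 1.01 in shSTYK1 libraries. The higher ones were NQO1 and the aldehyde dehydrogenases ALDH3B1 (1.25), ALDH1A3 (1.21), ALDH5A1 (0.84) and ALDH1L2 (0.58, named after its value was seen). ALDH2 was below the filter. With rescaling by the median of ratios ALDH3B1 was at 0.74, ALDH1A3 at 0.66 and ALDH5A1 at 0.41, and ALDH1L2, at 0.26, was not called. With a pseudocount of 0.1 ALDH1L2 was at 0.95. With quantile normalization ALDH1A3 fell to 0.30 and was no longer called. ALDH1A3-AS1, antisense to it, was also called higher (0.99, and 0.49 with rescaling by the median of ratios) and was likewise named after its value was seen. Reads over bases that this pair may share cannot be told apart without strand.

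CYP1B1 can oxidise retinol and retinal, so the retinoid genes of the table are given beside it. Of 39 listed genes 5 are in the table, with 3 called lower, DHRS9 among them through the control group alone, and 2 higher (against 44.5% lower and 51.2% higher over all tested genes). The lower ones were DHRS9, a retinol dehydrogenase (-1.68), RBP7, a cellular retinol-binding protein (-1.52), and STRA6, the receptor for retinol uptake (-1.15). STRA6 had 3.41, 3.28 and 3.01 in control and 0.89, 1.01 and 0.84 in shSTYK1 libraries. Among the higher ones, ALDH1A3 makes retinoic acid, and CRABP2 (0.99) carries it into the nucleus. CRABP2 fell to 0.44 with rescaling by the median of ratios and to 0.11 with quantile normalization, where it was not called. With a pseudocount of 0.1, DHRS9 was at -2.83 and STRA6 at -1.72. Each of these differences was smaller than that of CYP1B1 on the same scale.

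Oestrogens and arachidonic acid are other substrates of CYP1B1. Of 40 steroid receptors and enzymes, only STS is in the table, the sulfatase that frees oestrone from its sulfate. STS rose from 1.21, 0.79 and 1.17 to 4.27, 4.41 and 5.36, a difference of 1.47 (SE 0.14, adjusted p = 6.27e-05 in limma). Of 31 eicosanoid genes, only PTGS1 (cyclooxygenase 1) is in it, with 0.13, 0.37 and 0.21 in control and 1.62, 1.81 and 1.60 in shSTYK1 libraries, a difference of 1.12 that became 2.46 with a pseudocount of 0.1. Both went in the opposite direction to CYP1B1.

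**Figure D4:**
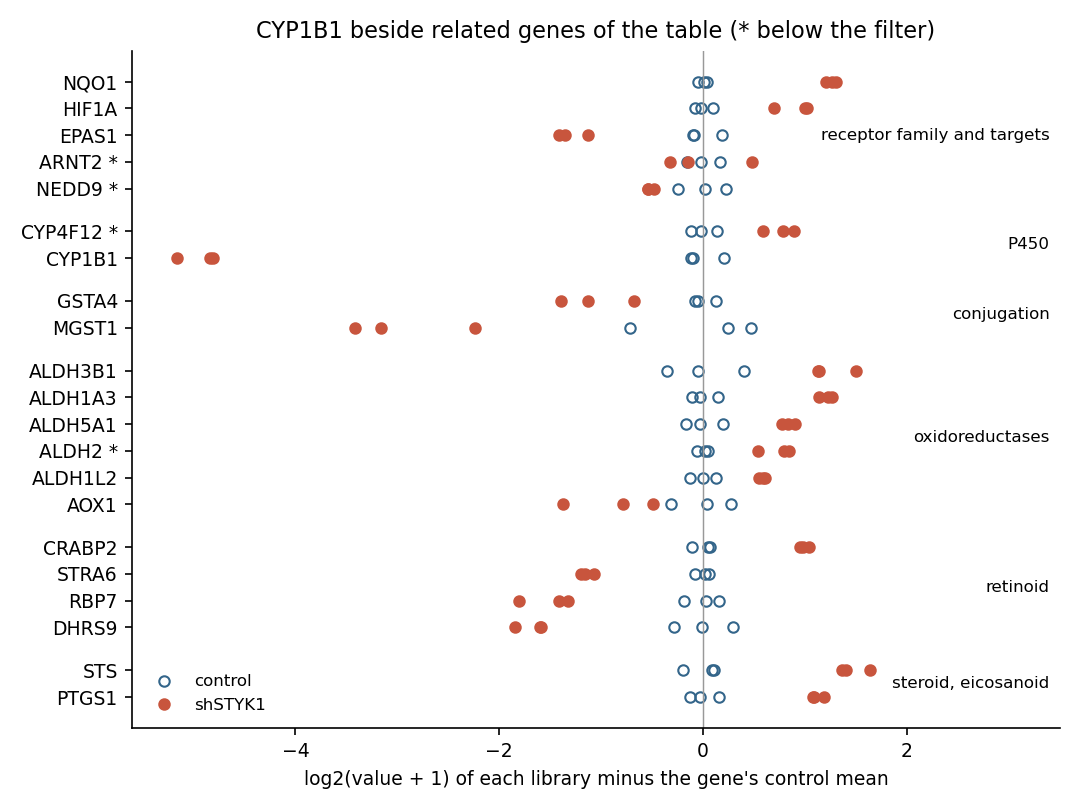
CYP1B1 beside genes of related pathways, with log2(value + 1) of each library minus the gene's control mean on the horizontal axis, open points for control and filled points for shSTYK1 libraries (3 each). CYP1B1 lies farthest from its control libraries among the genes drawn, and a star marks genes below the filter of the test.

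The neighbourhood of CYP1B1 on chromosome 2 was sparsely covered. Within 5 Mb of it, GENCODE lists 39 protein-coding genes, of which 2 are in the table. RASGRP3, an exchange factor for Ras and Rap, starts at -4.67 Mb from the start of CYP1B1. It had 3.56, 4.30 and 6.88 in control and 1.29, 1.03 and 1.98 in shSTYK1 libraries, a difference of -1.26 (SE 0.23, adjusted p = 0.00108 in limma). SLC8A1, a sodium-calcium exchanger, starts 2.501 Mb on the other side, and had 7.86, 8.59 and 8.95 against 2.28, 2.51 and 1.98, a difference of -1.54 (SE 0.12, adjusted p = 2.67e-05 in limma). Both were lower in shSTYK1 cells, by less than CYP1B1. Counting all annotated genes, the window holds 134, of which these 2 and CYP1B1-AS1 are in the table.

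The genes whose values over the 6 libraries were most like those of CYP1B1 were CDH2, BMP5, GJA1, MAGEA6 and CHST11, ranked by Pearson's r of the deposited z-scores. Their r values were 0.9998, 0.9992, 0.9990, 0.9987 and 0.9986 (n = 6). The 6 points form 2 groups, and r is set almost wholly by the step between them: 74 of the 994 other table genes had r over 0.99. Genes chosen in this way had to differ between the groups, so their differences are given here with no test. Their calls enter only the counts of calls over the genes tested. CDH2, N-cadherin, had 22.84, 23.12 and 24.81 in control and 2.98, 2.58 and 3.05 in shSTYK1 libraries, a difference of -2.67. In CDH2, as in CYP1B1, control library 3 was the highest and shSTYK1 library 2 the lowest. BMP5, a ligand of the BMP family, had 3.58, 3.45 and 4.13 in control and 0.37, 0.18 and 0.30 in shSTYK1 libraries, a difference of -1.88 (-3.35 with a pseudocount of 0.1). GJA1, described above, put the 6 libraries in the same order as CYP1B1, which 12 genes did. MAGEA6 (-1.40; -2.72 with a pseudocount of 0.1) is a tumour antigen whose reads can be shared with near-identical family members, and CHST11 (-1.51) is a chondroitin sulfotransferase. The control libraries of CHST11 stood in the same order as those of CYP1B1, and its shSTYK1 libraries did not.

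**Figure D5:**
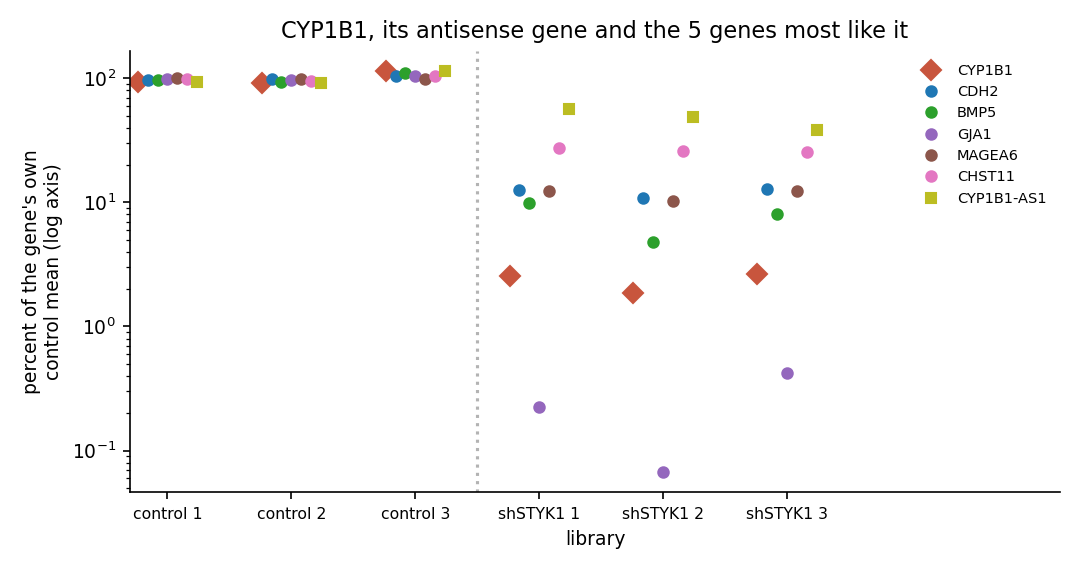
Value of each library as a percent of the gene's own control mean (log axis), for CYP1B1, the 5 genes most like it and CYP1B1-AS1, with one point per gene and library. The genes share the step between control and shSTYK1 libraries and differ in its depth: the mean left in shSTYK1 cells was 2.36% for CYP1B1, 0.238% for GJA1, 26.4% for CHST11 and 47.7% for CYP1B1-AS1.

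Markers could say little about the identity of the cells. Of 11 epithelial and duct markers, only CDH1 (E-cadherin) is in the table, with 0.10, 0.27 and 0.28 in control and 0.94, 0.85 and 0.90 in shSTYK1 libraries, all below the filter. Of 8 mesenchymal markers, CDH2 and SNAI1 are in the table. CDH2, described above with no test, was lower in all 3 shSTYK1 libraries, and SNAI1 was called lower, as were 44.5% of all tested genes. SNAI1, a repressor of E-cadherin, had 4.84, 9.05 and 4.44 in control and 2.36, 3.29 and 2.66 in shSTYK1 libraries, a difference of -0.87. Of 12 markers of fibroblasts, endothelium, blood, acini and islets, only COL1A1 is in the table, with 26.73, 42.24 and 22.24 against 3.12, 3.73 and 2.94, a difference of -2.83. For CDH1, CDH2, SNAI1 and COL1A1 the groups did not overlap, as in 93.7% of the 994 genes, and CDH1 was not tested. The part of these genes in the difference of CYP1B1 was not tested. The other listed markers, keratins included, are not among the 995 genes, so the label of the line could not be checked against them.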

How the data were processed

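PANC-1 messenger RNA was sequenced in 3 control and 3 shSTYK1 samples. The authors deposited z-scores (a score per gene and library) of 995 selected genes. The authors' processing notes name RSEM, DESeq2 and GRCh38/hg38, with no roles. The study describes its changed genes as those with p under 0.05, with no tool named, and the table was read as these genes. The unit and depth are not given in the sources used here. Recovery in Python 3.11.15 (numba 0.67.0) looked, per gene, for 6 numbers of 2 decimals that give its z-scores after log(value + 1), up to a value + 1 of 2000, and solved 994 genes. The design allowed for z-scores, and the test was run on these values: limma 3.58.1 (R 4.3.3, lmFit and eBayes) on log2(value + 1), genes with at least 1 in 3 libraries, Benjamini-Hochberg threshold 0.05. Recovery and test were tested on simulated data.

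The study calls the 3 samples of a group biological replicates, without saying whether they were separate cultures or clones, so p-values measure only the spread between these samples. Errors are SDs, and SEs from limma. Counting error could not be given, since the depth is unknown.

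CYP1B1 and the lists were chosen with earlier results of these data known. The text names CYP1B1, its table genes in the receptor, target, bHLH-PAS and P450 lists, up to 5 genes per direction of each other list, neighbours within 5 Mb, the 5 genes of highest r and the nearest genes in the order of differences. Of these, 1 is not reported here. Annotation and sequences are from GENCODE 29. The alternatives tried were quantile normalization, rescaling by the median of ratios, a pseudocount of 0.1, no filter and a filter of at least 5. A replicate block, each library left out and limma on the z-scores were also tried. Quantile normalization and the rescaling used the selected genes only, so they can also take out real differences.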

Additional observations from a re-analysis of the deposited data

How the results depend on the processing

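The direction of CYP1B1 follows from how it was picked and supports nothing. Its difference of -4.94 was the smallest in size among those that used all 6 libraries, the replicate block aside. It was -5.36 with a pseudocount of 0.1, -5.38 after rescaling by the median of ratios, -5.25 with quantile normalization and -5.40 as the log2 ratio of group means. Leaving out each library gave -5.002 to -4.821. Rescaling by the median of ratios moved the median of all genes by -0.34 and the smaller pseudocount by 0.27, so CYP1B1 moved a little more than the median gene under the first and in the opposite direction to it under the second. A filter of at least 5 left 327 genes, with 130 called lower and 194 higher. The other 30 genes tested are those of the naming rule and the 2 added after their values were seen. All 30 were called, as were 95.7% of all 740 tested genes. Of the 30, 18 passed the filter of at least 5 and were called under it. The 30 include the genes chosen by r or by the order of differences, whose calls follow from that choice. Among 348 pairs of such a gene and an alternative, 345 kept direction and call, none turned, and 3 calls were lost. With rescaling by the median of ratios it was that of ALDH1L2 (adjusted p = 0.113, range over its alternatives 0.000856 to 0.113, limma), and with quantile normalization those of ALDH1A3 (adjusted p = 0.055, range over its alternatives 3.94e-05 to 0.055, limma) and CRABP2 (adjusted p = 0.347, range 6.9e-05 to 0.347, limma). Replicate numbers showed no clear pairing of the samples (r of deviations -0.225, 0.191 and 0.048 for numbers 1 to 3). With 3 libraries per group, these values cannot settle whether the samples were paired. The replicate block cannot move a difference of group means in this balanced design (-4.94 for CYP1B1), and with it 329 genes were called lower and 385 higher. Limma on the deposited z-scores of all 995 genes called 484 lower and 465 higher. Of the 5 genes most like CYP1B1, 2 to 3 were again among the first 5 when a library was left out. By Spearman's rho no first 5 can be set, since 12 genes tie at 1, among them 1 of the 5 (GJA1). The unknown unit and depth limit all levels, and values near 0 most.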
